A study of Mus musculus with 22 samples.

Results

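Haematopoietic stem cells (HSCs), the few marrow cells that give rise to every blood lineage, are isolated by flow cytometry with a small set of surface proteins and are traced in reporter mice through a few further genes. The transcripts of 10 such marker genes were followed here. They were chosen by name, with earlier results of these data known. The proteins of Kit, Ly6a, Slamf1 and Cd48 defined the sorting gate of the study. Cd34 and Flt3 mark multipotent progenitors close to HSCs, and Procr, Fgd5, Ctnnal1 and Hoxb5 are used to mark HSCs in mice. These markers are 10 of 55416 gene identifiers in the count files. All 10 were among the 17366 genes that passed the filter on low counts. The study sequenced messenger RNA of HSCs from young and middle-aged mice, sorted by whether the leptin receptor (LEPR) was on the cell surface. Marrow was flushed from femurs and tibiae, cells carrying lineage markers were removed on magnetic beads, and cells without lineage markers, with Sca1, Kit and CD150 and without CD48 were sorted into LEPR+ and LEPR- fractions. This gave 4 groups, with 4 libraries in each fraction of the young mice and 7 in each fraction of the middle-aged mice. Mice 1 to 4 were young, at 2 to 3 months, and mice 5 to 11 middle-aged, at 12 to 15 months, and each mouse gave 1 library of either fraction. No strain, genotype, treatment or number of cells per library is given in the labels, and no group carried an engineered allele as far as they state. Male mice were 2 of the 4 young and 2 of the 7 middle-aged animals.

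In mouse marrow, HSCs carry Kit, the receptor tyrosine kinase for stem cell factor, together with the glycosylphosphatidylinositol-anchored protein Sca1, the product of Ly6a. Within the cells that carry both, the pair of related immune receptors CD150 (Slamf1) and CD48 (Cd48) separates HSCs, which have CD150 and lack CD48, from most multipotent progenitors, which gain CD48. The sialomucin CD34 and the receptor tyrosine kinase FLT3 are gained as adult mouse HSCs move towards multipotent and lymphoid-primed progenitors. The protein C receptor (Procr), the guanine nucleotide exchange factor Fgd5, alpha-catulin (Ctnnal1) and the homeobox factor Hoxb5 are markers that enrich for long-term repopulating HSCs.

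The libraries held 10.3 M to 61.7 M gene counts (M, mega) with a median of 33 M. Levels below are in CPM, the counts of a gene per 1000000 counts of the library after scaling with edgeR's TMM factors, and a count of 0 allowed a level of up to 0.0452 to 0.279 CPM (3 counts), depending on the library. In young mice 13456 to 15406 genes were detected in the LEPR+ and 12424 to 15197 in the LEPR- libraries, and in middle-aged mice 14000 to 22972 and 15841 to 24523. Of the 9028 genes whose mean level reached 10 CPM, the share under 1 CPM in a library was 8.94% to 14.6% for LEPR+ and 15% to 23.7% for LEPR- cells of young mice, against 0.133% to 18.4% and 0.133% to 11.5% in middle-aged mice. The highest shares among middle-aged mice were in both libraries of mouse 6 and the LEPR+ library of mouse 5 (10.1%). Marker genes were among these low values. In the young LEPR- library of mouse 2, which had the highest share and the fewest detected genes, 4 of the 10 markers were at 0. Lepr itself, the gene of the sorted receptor, had 1 count over all young LEPR+ libraries and 1 over all young LEPR- libraries. In middle-aged mice it had 428 counts in LEPR+ and 254 in LEPR- libraries, with adjusted p = 1 for LEPR+ against LEPR- by edgeR, so its transcript did not check the sort.

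**Figure D1:**
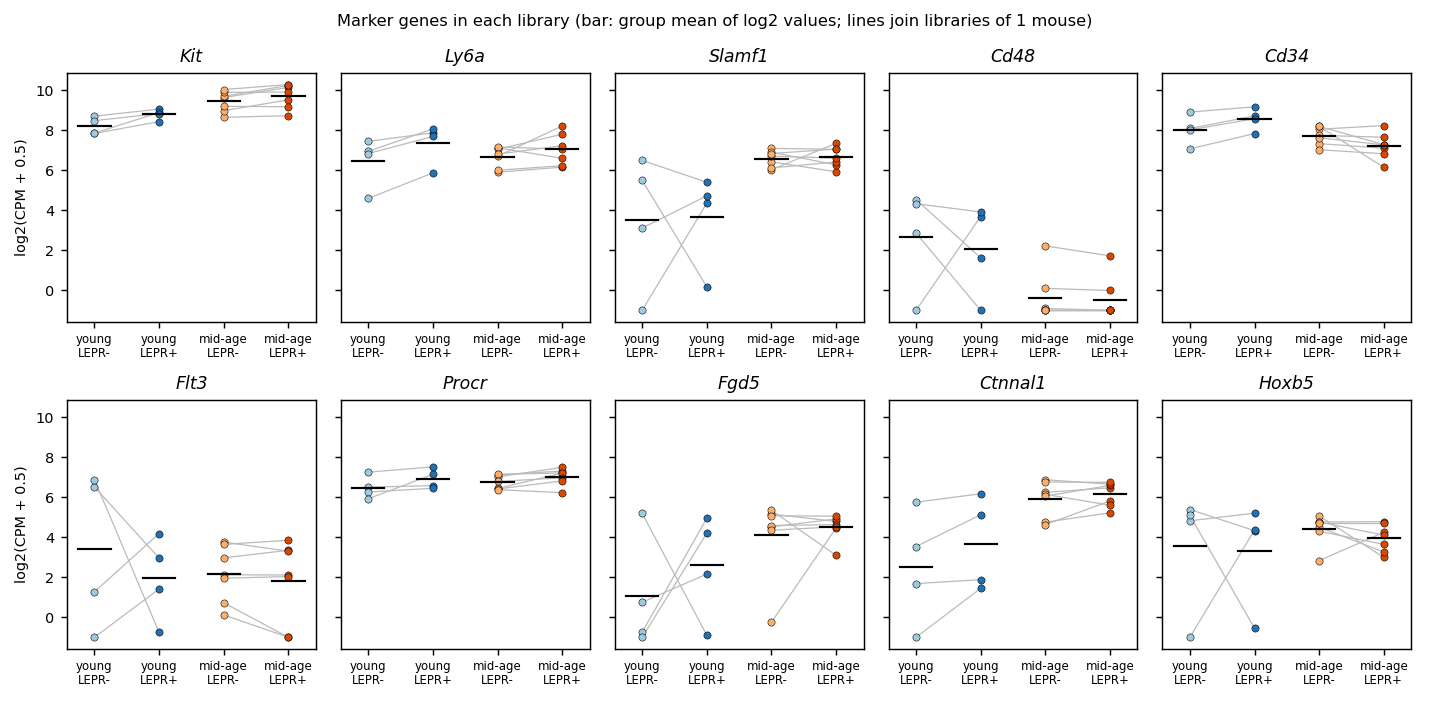
Level of each marker gene in each library, as log2(CPM + 0.5), with fractions of 1 mouse joined by a line and a bar at the group mean of the log2 values. Kit, Ly6a, Cd34 and Procr were counted in all 22 libraries, whereas Slamf1, Cd48, Flt3, Fgd5, Ctnnal1 and Hoxb5 scattered widely among young libraries.

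Of the 10 markers, Kit was the 1 that changed with age in the quasi-likelihood test of edgeR, and it did so in LEPR- cells. Kit was 2.37-fold higher in middle-aged than in young LEPR- HSCs, and the estimate for LEPR+ HSCs was 1.99-fold without passing the test. Cd34 had the opposite sign in both fractions, with a level 2.49-fold lower in middle-aged LEPR+ cells that did not pass the test either. Called genes were 3.84% of the 17366 tested in the LEPR- age comparison, against 1 of 10 markers, and 0.173% in the LEPR+ age comparison, against 0 of 10. In the LEPR+ comparison 3 markers (Kit, Cd34 and Slamf1) had an unadjusted p under 0.05, compared with 19.7% of tested genes, and DESeq2 called 2 of them, Kit and Cd34, compared with 11.4%. In the LEPR- comparison the 1 marker with an unadjusted p under 0.05 and the 1 called by DESeq2 were both Kit, compared with 28% and 20.8% of tested genes. No marker was called between LEPR+ and LEPR- cells at either age.

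Kit (ENSMUSG00000005672.13, GRCm39 chromosome 5, 75735576 to 75817404, plus strand) was counted in all 22 libraries. Young LEPR+ libraries of mice 1 to 4 had 533, 345, 474 and 457 CPM, and the LEPR- libraries of the same mice 417, 229, 231 and 357 CPM. Middle-aged LEPR+ libraries ranged from 425 to 1250 CPM with a median of 962, and middle-aged LEPR- libraries from 400 to 1050 CPM with a median of 797. In both fractions the lowest middle-aged library came from mouse 6 and lay inside the young range, while the other 6 libraries lay above every young library of their fraction. The mean of LEPR+ libraries was 452 ± 78.3 CPM in young (SD, n = 4) and 900 ± 327 in middle-aged mice (n = 7), and that of LEPR- libraries 308 ± 93.6 (n = 4) and 731 ± 240 (n = 7). In bulk libraries, more cells with Kit transcripts and more transcripts per cell cannot be told apart.

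The age difference of Kit in LEPR- cells was 1.25 on the log2 scale (SE 0.307, adjusted p = 0.0319 by edgeR). It was no longer called without the young LEPR- library of mouse 2 (adjusted p = 0.0988), of mouse 3 (0.104) or of mouse 4 (0.0588), nor without the middle-aged LEPR- library of mouse 7 (0.0511) or of mouse 8 (0.0554), nor without both libraries of mice 10 and 11 (1.43, adjusted p = 0.0557), while the estimate lay between 1.1 and 1.37 over all 11 fits with 1 library left out. With the number of detected genes as a covariate the estimate was 1.25 (adjusted p = 0.148), and with the mouse as a random replicate block in voom it was 1.17 (adjusted p = 0.175). In LEPR+ cells the age difference was 0.99 (SE 0.303, adjusted p = 0.127), and without mouse 6 it was 1.11 and called (adjusted p = 0.0245). The median log2 difference of all tested genes with age was 0.33 in LEPR- and 0.25 in LEPR+ cells, and these medians were 0.46 and 0.35 under RLE and 0.21 and 0.08 under upperquartile scaling. The estimates of Kit lay above them in both fractions. Whether age acted differently on Kit in the fractions was tested by the difference of the LEPR effects, which was -0.25 with a 95% interval from -1.11 to 0.60 (adjusted p = 1).

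**Figure D2:**
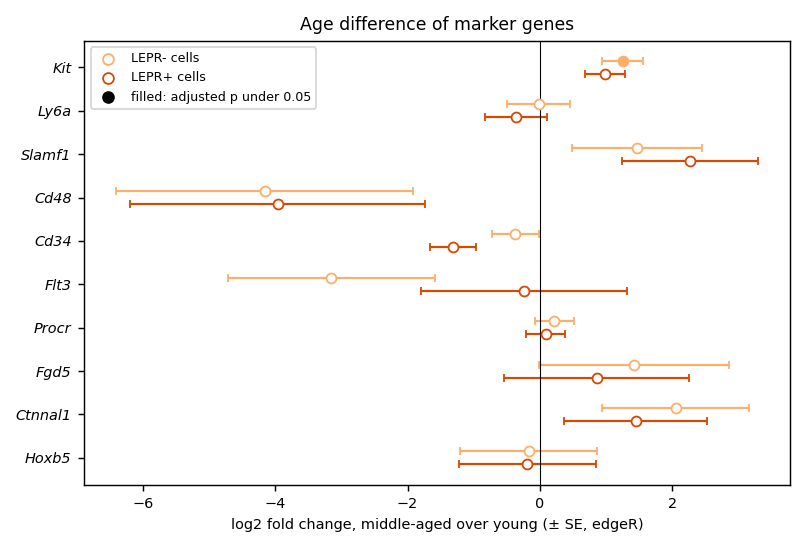
Log2 fold change of middle-aged over young libraries for each marker in LEPR- and LEPR+ cells, with bars of 1 SE from edgeR and a filled point where the adjusted p is under 0.05. Kit in LEPR- cells (1.25) is the filled point, and the bars of Cd48, Flt3, Fgd5, Ctnnal1, Slamf1 and Hoxb5 are longer than those of Kit, Cd34 and Procr.

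Ly6a (ENSMUSG00000075602.11, chromosome 15, 74863840 to 74869880, minus strand) encodes Sca1 and is 1 of a cluster of related Ly6 genes. Young LEPR+ libraries had 234, 268, 57.9 and 206 CPM, and young LEPR- libraries 174, 123, 23.7 and 114 CPM. Mouse 3 was the lowest young mouse in both fractions. Levels in middle-aged mice ran, for LEPR+ libraries, from 70.9 to 297 CPM with a median of 133, and middle-aged LEPR- libraries from 59.4 to 143 CPM with a median of 112, so the ages overlapped throughout. The age difference was -0.36 in LEPR+ cells (95% interval -1.35 to 0.63, adjusted p = 0.796 by edgeR). In LEPR- cells it was -0.02 (-1.01 to 0.98, adjusted p = 0.988), and its sign turned under RLE scaling (0.07). Per 100 Kit counts, a ratio within a library that does not depend on scaling, Ly6a had 12.2 to 77.5 counts in young LEPR+ and 10.2 to 53.6 in young LEPR- libraries, against 9.64 to 26.1 and 10.7 to 34.7 in the middle-aged fractions.

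Slamf1 (ENSMUSG00000015316.12, chromosome 1, 171594695 to 171628764, plus strand) encodes CD150, whose presence on the surface was part of the gate. Its transcript was unevenly counted in young mice, at 0.629, 20, 41.8 and 25.9 CPM in LEPR+ and 44.5, 0, 89.7 and 8.16 CPM in LEPR- libraries. Middle-aged LEPR+ libraries ranged from 60.4 to 162 CPM with a median of 97.2, and middle-aged LEPR- libraries from 65 to 136 CPM with a median of 104. In LEPR+ cells every middle-aged library lay above every young one, which held for 1 of 10 markers and for 2.06% of tested genes (every middle-aged library below every young one: 0 of 10 markers and 0.979%). In LEPR- cells the young library of mouse 3, at 89.7 CPM, lay among the middle-aged ones, and the rule held for 0 of 10 markers and 4.19% of tested genes (0.864% in the other direction, again with 0 of 10 markers). The age differences were 2.27 (SE 1.03, adjusted p = 0.222 by edgeR) in LEPR+ and 1.47 (SE 0.985, adjusted p = 0.363) in LEPR- cells. With the number of detected genes as a covariate they were 1.48 (adjusted p = 0.861) and 0.83 (adjusted p = 0.894).

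Cd48 (ENSMUSG00000015355.14, chromosome 1, 171509573 to 171532826, plus strand) lies beside Slamf1 on the chromosome and encodes the protein whose absence from the surface was part of the gate. Young LEPR+ libraries had 2.58, 12.4, 14.6 and 0 CPM, and young LEPR- libraries 22.7, 0, 19.6 and 6.75 CPM. In middle-aged mice Cd48 was at 0 in 5 of 7 LEPR+ and 4 of 7 LEPR- libraries. Mouse 10 had the highest middle-aged levels, 2.8 CPM in LEPR+ and 4.16 CPM in LEPR- cells, and mouse 11 followed with 0.494 and 0.568 CPM. Cd48 transcripts were thus counted at 1 CPM or more in 6 of 8 young and 2 of 14 middle-aged libraries. The age differences were -3.96 (SE 2.23, adjusted p = 0.348 by edgeR) in LEPR+ and -4.16 (SE 2.24, adjusted p = 0.235) in LEPR- cells, with wide errors and with zeros in both ages. With the number of detected genes as a covariate the LEPR- difference was -15.76 and called (adjusted p = 0.0417), and the LEPR+ difference was -16.88 (adjusted p = 0.102). With 9 of 14 middle-aged libraries at 0 these estimates give no fold. Mice 10 and 11, the middle-aged mice with Cd48 counts in both fractions, also had the libraries with the most detected genes of their fractions (21172 and 22972 in LEPR+, 21015 and 24523 in LEPR- cells).

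Set against Slamf1 in the same library, Cd48 gave 410, 62.1, 35 and 0 counts per 100 Slamf1 counts in young LEPR+ libraries, where the first value rests on 20 Slamf1 counts. Young LEPR- libraries gave 51.1, 21.9 and 82.8 for mice 1, 3 and 4, and the ratio is undefined for mouse 2, in which both genes were at 0. Middle-aged libraries ranged from 0 to 2.88 in LEPR+ and from 0 to 3.99 in LEPR- cells. Apart from the young LEPR+ library of mouse 4, with no Cd48 counts, every defined young ratio lay above every middle-aged one. This ratio and that of Cd34 to Kit were formed after the values of the genes had been seen and are given as a description.

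**Figure D3:**
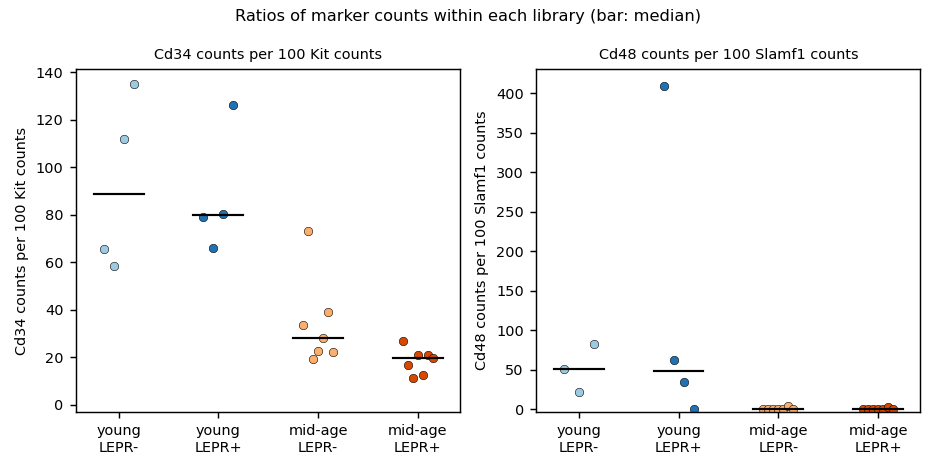
Counts of Cd34 per 100 Kit counts and of Cd48 per 100 Slamf1 counts in each library, with a bar at the group median. The Cd34 ratio was 58.4 to 135 in young libraries and 11.2 to 73.1 in middle-aged ones, where 73.1 is the LEPR- library of mouse 6, and 1 young LEPR- library without Slamf1 counts is absent from the Cd48 panel.

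Among the progenitor markers, Cd34 (ENSMUSG00000016494.10, chromosome 1, 194621029 to 194647172, plus strand) was counted in every library. Young LEPR+ libraries had 421, 228, 382 and 577 CPM, and young LEPR- libraries 272, 134, 259 and 481 CPM. In middle-aged mice, LEPR+ libraries ran from 70.4 to 301 CPM with a median of 154, and middle-aged LEPR- libraries from 130 to 293 CPM with a median of 214. In LEPR+ cells 6 of 7 middle-aged libraries lay below every young one, with mouse 5 as the exception, whereas in LEPR- cells the ages overlapped. The age difference in LEPR+ cells was -1.32 (SE 0.348, 95% interval -2.04 to -0.59, adjusted p = 0.101 by edgeR). It was called with DESeq2 (-1.24, adjusted p = 0.0108) and with the mouse as a random replicate block in voom (-1.14, adjusted p = 0.0285), but not by the other fits that were run. In LEPR- cells it was -0.37 (SE 0.353, adjusted p = 0.562).

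Cd34 and Kit, the markers with the smallest p with age in LEPR+ cells and estimates of opposite sign, were also set against each other. Cd34 gave 79.1, 65.9, 80.4 and 126 counts per 100 Kit counts in young LEPR+ libraries, and 11.2 to 26.6 with a median of 19.5 in middle-aged LEPR+ libraries. Young LEPR- libraries had 65.4, 58.4, 112 and 135, and middle-aged LEPR- libraries 19.3 to 73.1 with a median of 28.1. The groups of LEPR+ cells did not overlap in this ratio, and in LEPR- cells mouse 6 alone reached the young range. Since the pair was picked after its values were seen, this is a description. How often other pairs of genes separate the ages in this way was not computed.

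Flt3 (ENSMUSG00000042817.16, chromosome 5, 147267551 to 147337483, minus strand) was low except in 2 libraries. Young LEPR- cells of mice 1 and 4 had 90.7 and 117 CPM, those of mice 2 and 3 had 0 and 1.91 CPM, and young LEPR+ libraries had 7.27, 2.16, 17.7 and 0.0914 CPM. Middle-aged libraries ranged from 0 to 13.9 CPM in LEPR+ and from 0.582 to 13 CPM in LEPR- cells. The age difference was -3.15 (SE 1.56, adjusted p = 0.192 by edgeR) in LEPR- and -0.24 (SE 1.56, adjusted p = 0.971) in LEPR+ cells. Between the young fractions Flt3 differed by -2.94 (SE 1.91, adjusted p = 0.589), with a higher level in LEPR+ than LEPR- cells in mice 2 and 3 and a lower one in mice 1 and 4. Cd48, Fgd5, Hoxb5 and Slamf1 also lay on opposite sides in different young mice.

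Of the genes used to mark long-term HSCs, Procr (ENSMUSG00000027611.13, chromosome 2, 155593031 to 155597397, plus strand) was counted in all 22 libraries, at 60.3 CPM or more. Young LEPR+ libraries had 183, 95.3, 86.8 and 141 CPM, and young LEPR- libraries 152, 90.2, 76.2 and 60.3 CPM. Middle-aged LEPR+ libraries ranged from 74.4 to 180 CPM with a median of 147, and middle-aged LEPR- libraries from 83 to 141 CPM with a median of 110. The age difference in LEPR+ cells was 0.09 with a 95% interval from -0.52 to 0.71 (adjusted p = 0.936 by edgeR), and it was -0.05 under upperquartile scaling. In LEPR- cells it was 0.22 (-0.40 to 0.84, adjusted p = 0.706). These intervals do not show that Procr was equal at the ages, but in this fit they leave out a doubling in either fraction. With the number of detected genes as a covariate the estimates were 0.40 (SE 0.357) in LEPR+ and 0.57 (SE 0.378) in LEPR- cells. These wider errors do not leave out a doubling.

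Fgd5 (ENSMUSG00000034037.15, chromosome 6, 91955791 to 92052987, plus strand) was patchy in young libraries, with 30.4, 3.97, 0.0356 and 17.9 CPM in LEPR+ and 0.097, 1.18, 36.1 and 0 CPM in LEPR- cells. At middle age the LEPR+ libraries spanned 8.06 to 32.7 CPM with a median of 24.3. Middle-aged LEPR- libraries ranged from 0.344 CPM, in mouse 6, to 40.2 CPM with a median of 23.5. The age differences were 0.86 (SE 1.40, adjusted p = 0.848 by edgeR) in LEPR+ and 1.42 (SE 1.44, adjusted p = 0.593) in LEPR- cells. With 1 library left out the LEPR- difference ranged from 0.98 to 5.78, and 5.78 (adjusted p = 0.0948) was the value without the young LEPR- library of mouse 3.

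Ctnnal1 (ENSMUSG00000038816.15, chromosome 4, 56810932 to 56865406, minus strand) had 3.18, 2.22, 34.3 and 71.7 CPM in young LEPR+ and 2.71, 0, 11.1 and 53.4 CPM in young LEPR- libraries. In both fractions the order of the mice was the same, with mouse 4 highest and mouse 2 lowest. Middle-aged LEPR+ libraries ranged from 36.8 to 107 CPM with a median of 88.3, and middle-aged LEPR- libraries from 24.3 to 117 CPM with a median of 70.2. The age differences were 1.45 (SE 1.08, adjusted p = 0.541 by edgeR) in LEPR+ and 2.05 (SE 1.11, adjusted p = 0.238) in LEPR- cells. With the mouse as a random replicate block in voom, which works on log2 values, the LEPR- difference was 4.62 and called (adjusted p = 0.0379).

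Hoxb5 (ENSMUSG00000038700.5, chromosome 11, 96194162 to 96196947, plus strand) had 36.4, 19.6, 20.1 and 0.183 CPM in young LEPR+ and 27.8, 41.3, 0 and 33.5 CPM in young LEPR- libraries. The middle-aged LEPR+ libraries ran from 7.46 to 27 CPM with a median of 16.7, and middle-aged LEPR- libraries from 6.62 to 32.9 CPM with a median of 25.9. The age differences were -0.19 (SE 1.04, adjusted p = 0.965 by edgeR) in LEPR+ and -0.17 (SE 1.04, adjusted p = 0.950) in LEPR- cells. Hoxb5 shares 9.48% of its exon bases with Hoxb5os on the other strand, and the strand setting of the counting is not given in the sources used here. Of the other markers, Ly6a shared 4.8%, Flt3 4.62%, Cd34 4.11%, Ctnnal1 0.912% and Kit 0.106% of exon bases with a gene on the other strand.

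Zeros and low values were shared unequally among these genes. Whether a gene at 0 was absent or missed in a library was not tested. In young libraries 1 of 8 had no count for each of Slamf1, Flt3, Fgd5, Ctnnal1 and Hoxb5, and 2 of 8 had none for Cd48. Among the 14 middle-aged libraries Slamf1, Fgd5, Ctnnal1 and Hoxb5 were counted in all, Flt3 was at 0 in 2 and Cd48 at 0 in 9. Markers were under 1 CPM in 5 of 40 values of young LEPR+ and 7 of 40 of young LEPR- cells, and in 8 of 70 values of either middle-aged fraction. Of the 16 middle-aged values under 1 CPM, 12 were those of Cd48.

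Between fractions of the same young mice, 5 of 10 markers (Kit, Ly6a, Cd34, Procr and Ctnnal1) were higher in the LEPR+ library in all 4 mice, compared with 4.70% of tested genes and 7.29% of the 9028 more abundant ones described above. None was lower in every mouse, compared with 4.53% of tested genes. Under RLE scaling the count was 4 of 10, without Procr. The test across libraries called none of them, where 0.599% of tested genes were called, none had an unadjusted p under 0.05, compared with 16.1% of tested genes, and DESeq2 called none, compared with 11.4%. The estimates were 0.55 for Kit (SE 0.33, adjusted p = 0.512 by edgeR), 0.82 for Ly6a (SE 0.544, adjusted p = 0.614), 0.49 for Cd34 (SE 0.404, adjusted p = 0.777), 0.42 for Procr (SE 0.334, adjusted p = 0.758) and 0.73 for Ctnnal1 (SE 1.15, adjusted p = 0.993). With the mouse as a fixed replicate block in edgeR, Kit had an unadjusted p of 0.00122 (adjusted p = 0.161) and Ly6a of 0.00931 (adjusted p = 0.263). In that fit the unadjusted p was 0.0816 for Cd34, 0.106 for Procr and 0.0846 for Ctnnal1. The young LEPR- libraries were also those with the higher shares of genes under 1 CPM, given above. With the number of detected genes as a covariate Kit was at 0.55 and Cd34 at 0.49. That number overlapped between the young fractions (medians 14501 in LEPR+ and 14342.5 in LEPR- libraries). This covariate thus does not adjust for the share of genes under 1 CPM. The part of that share in these differences was not tested.

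The ratio of LEPR+ to LEPR- within a mouse, on the log2 scale, was 0.35, 0.59, 1.03 and 0.36 for Kit in young mice 1 to 4. For Ly6a it was 0.43, 1.12, 1.27 and 0.85. For Procr it was 0.27, 0.08, 0.19 and 1.22, so mouse 4 stood above the others. The ratios of Ctnnal1 ran from 0.20 to 2.44, with the highest in mouse 2, whose LEPR- library had no Ctnnal1 count.

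In middle-aged mice none of the 10 markers was on 1 side in every mouse, compared with 0.553% of tested genes that were higher and 0.668% that were lower in LEPR+ cells of all 7. Kit was higher in LEPR+ cells in 6 of 7 mice, with log2 ratios from -0.02 to 0.55, Procr in 6 of 7 (-0.16 to 0.76) and Ly6a in 5 of 7 (-0.52 to 1.51). No marker was called by edgeR (0% of tested genes were) or by DESeq2 (0.00582%), none had an unadjusted p under 0.05 (0.875%), and the estimates were 0.30 for Kit (95% interval -0.22 to 0.82), 0.29 for Procr (-0.23 to 0.82) and 0.47 for Ly6a (-0.38 to 1.32). The largest differences in these intervals correspond to less than a doubling for Kit and Procr. With the mouse as a fixed replicate block the unadjusted p was 0.0212 for Kit and 0.0437 for Cd34 (adjusted p = 1 for both). With the mouse as a random replicate block in voom the estimate for Kit was 0.67, with an unadjusted p of 0.000217 and an adjusted p of 0.29.

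**Figure D4:**
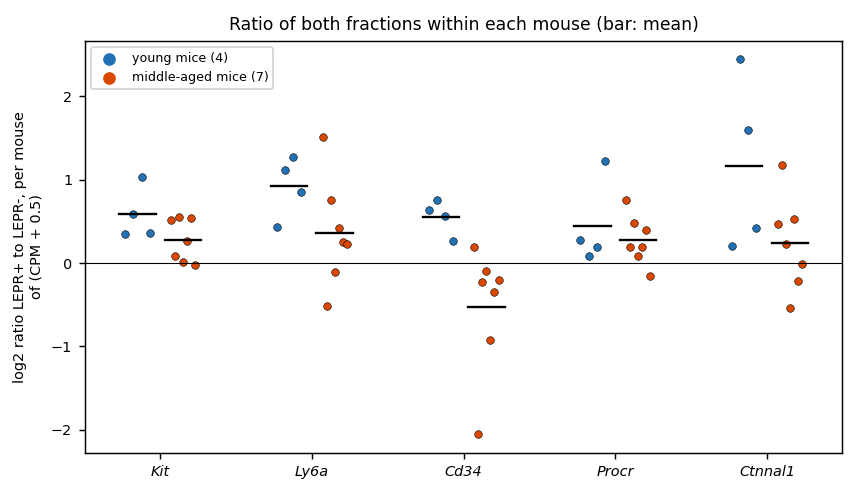
Log2 ratio of LEPR+ to LEPR- level (CPM + 0.5) within each mouse for the 5 markers that were higher in LEPR+ in every young mouse, with a bar at the mean of 4 young or 7 middle-aged mice. The young points were chosen to lie above 0, and the middle-aged points of Cd34 lie between -2.05 and 0.19.

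The estimates of the LEPR effect had opposite signs at the ages for Cd34, Slamf1 and Fgd5, and for Slamf1 and Fgd5 the mice of an age lay on both sides of 0. The log2 ratio of LEPR+ to LEPR- for Cd34 was 0.63, 0.76, 0.56 and 0.26 in young mice 1 to 4, and in middle-aged mice it ranged from -2.05, in mouse 6, to 0.19, in mouse 5, with 6 of 7 mice below 0. The ratio of every young mouse lay above that of every middle-aged mouse for 1 of 10 markers and 0.875% of tested genes, and the reverse held for 0 of 10 and 0.443%. The difference of the LEPR effects was -0.95 (SE 0.506, 95% interval -2.00 to 0.11, adjusted p = 0.491 by edgeR), and without mouse 6 it was -0.74 (adjusted p = 0.672). With the mouse as a fixed replicate block it was -1.06, with an unadjusted p of 0.0138 and an adjusted p of 0.425. For this comparison no marker was called, 0.236% of tested genes were, no marker had an unadjusted p under 0.05 (12.8% of tested genes did), and DESeq2 called none (7.69%).

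Per kb of exon union, the length over all annotated exons of a gene, the level of Kit was 47.8 (LEPR+) and 32.6 (LEPR-) CPM per kb in young mice, and 95.1 and 77.2 in middle-aged mice. Procr had 61.9 and 46.3 CPM per kb in young and 66.1 and 54 in middle-aged mice. By exon union Procr ranked first and Kit second in the young groups, and Kit first and Procr second in the middle-aged groups. Their order depends on the length used: per kb of the canonical transcript Kit, at 85.9, lay above Procr, at 78.7, in young LEPR+ cells. Cd48 had 5.13 and 8.5 CPM per kb in the young and 0.326 and 0.471 in the middle-aged groups, where it ranked last. The rank of Cd34 depended on the length used, since its exon union (11961 bases) is several times its canonical transcript (2468 bases): in young LEPR+ cells it ranked 4th by the former and first by the latter. For every marker, each group overlapped its neighbours in the order of the 4 group means.

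The gate and the label were further checked with 20 other HSC surface markers and 28 HSC transcription factors and intracellular genes, all of which passed the filter. The summed level of the surface markers was 1770 to 2240 CPM in LEPR+ and 1660 to 2470 in LEPR- libraries of young mice, and 2640 to 4500 and 2390 to 3580 in those of middle-aged mice. Of the 20 surface markers, 0 were called with age by edgeR. With an unadjusted p under 0.05 there were 6 in LEPR+ and 3 in LEPR- cells, and DESeq2 called 3 and 2, all higher in middle-aged mice (over all tested genes the shares were 19.7% and 28%, and 11.4% and 20.8% for DESeq2). Their median age difference was 0.82 in LEPR+ cells, beside 0.25 over all tested genes, and 0.78 in LEPR- cells, beside 0.33. The smallest p in LEPR+ cells belonged to Tie1, an endothelial and HSC receptor tyrosine kinase (3.18, SE 0.721, adjusted p = 0.0635). None of the 20 was called between the fractions by edgeR (0.599% of tested genes in young and 0% in middle-aged mice) or DESeq2 (11.4% and 0.00582%). With an unadjusted p under 0.05 there were 2 in young mice (16.1% of tested genes) and 0 in middle-aged mice (0.875%).

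Among the 28 transcription factors and intracellular genes, Sult1a1, a sulfotransferase gene used to recognise HSCs in expression data, rose with age in both fractions. It was at 96.1 ± 55.3 CPM in young LEPR+ (SD, n = 4) and 443 ± 65.9 in middle-aged LEPR+ libraries (n = 7), a log2 difference of 2.20 (SE 0.434, adjusted p = 0.0400 by edgeR). In LEPR- libraries it was at 84.3 ± 51.8 (n = 4) and 426 ± 81 CPM (n = 7), a difference of 2.34 (SE 0.437, adjusted p = 0.00698). The list's median age difference was 0.45 in LEPR+ cells, beside 0.25 over all tested genes, and 0.21 in LEPR- cells, beside 0.33. Between the fractions 0 of 28 were called by edgeR (0.599% of tested genes in young and 0% in middle-aged mice) and by DESeq2 (11.4% and 0.00582%). At an unadjusted p under 0.05 there were 3 in young mice (16.1% of tested genes) and 0 in middle-aged mice (0.875%).

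Progenitor lists did not pass the test either. Of 4 tested lymphoid-primed, 8 granulocyte-monocyte and 7 erythroid progenitor genes, 0 were called with age by edgeR, and 5 granulocyte-monocyte calls were made by DESeq2 over both fractions, 3 in LEPR+ and 2 in LEPR- cells. Over all tested genes edgeR called 0.173% with age in LEPR+ and 3.84% in LEPR- cells, and DESeq2 11.4% and 20.8%. Between the young fractions 0 of the 8 granulocyte-monocyte genes were called by edgeR (0.599% of tested genes) and 5 had an unadjusted p under 0.05 (16.1%). DESeq2, which called 11.4% of tested genes there, called Mpo, Elane and Csf1r, 1 of them higher and 2 lower in LEPR+ cells. The same 3 genes were called by DESeq2 for the difference of the LEPR effects (7.69% of tested genes). There edgeR called 0 of the list (0.236% of tested genes) and 4 had an unadjusted p under 0.05 (12.8%). Elane, the gene of neutrophil elastase, had the smallest p between the young fractions (adjusted p = 0.126 by edgeR), with 1 count over the LEPR+ libraries and a mean of 73.3 CPM in the LEPR- libraries. With age in both fractions, Prtn3, the gene of a neutrophil granule protease that is also transcribed in early progenitors, had the smallest p of the list. LEPR+ libraries had 377 ± 72.9 CPM in young (SD, n = 4) and 767 ± 366 in middle-aged mice (n = 7; log2 difference 1.02, adjusted p = 0.149 by edgeR). Of the 8 proliferation genes 0 were called in any comparison by edgeR or DESeq2, and 2 had an unadjusted p under 0.05 with age in each fraction. The smallest p was that of Cdk1, the kinase of mitotic entry, which was at 96.5 CPM in young LEPR+ and 25.7 in middle-aged LEPR+ cells (log2 difference -1.91, SE 0.633, adjusted p = 0.146). For LEPR+ against LEPR- cells all 8 estimates were below 0 at both ages, and 0 had an unadjusted p under 0.05. Their medians were -0.73 in young and -0.63 in middle-aged mice, beside 0 and 0.01 over all tested genes.

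Markers of other cell types were looked for because a sorted fraction can hold a few other cells. T cell genes were at 0 to 10.1 CPM in sum and none of the 6 passed the filter. The neutrophil list, led by S100a8, was at 0.183 to 13.7 CPM in young LEPR+ libraries, but at 3.67, 556, 13.2 and 835 CPM in the young LEPR- libraries of mice 1 to 4, and at up to 93.6 CPM, in mouse 10, in middle-aged LEPR- cells. The neutrophil genes Ly6g and Ltf were at 0 in all young libraries, and 0 of 4 tested genes of the list were called by edgeR in any comparison, with 2 at an unadjusted p under 0.05 between the young fractions, whereas DESeq2 called S100a8 there and with age in LEPR- cells. Over all tested genes 16.1% had an unadjusted p under 0.05 between the young fractions. DESeq2 called 11.4% of tested genes there and 20.8% with age in LEPR- cells. Mouse 4 had both a high neutrophil sum and the highest Flt3 level among young LEPR- libraries, while mouse 1 had the next highest Flt3 level with a low sum. Mouse 2, with a sum of 556 CPM, had Flt3 at 0 in that fraction. The part of these transcripts in the marker levels was not tested.

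The megakaryocyte and platelet list was at 242 to 461 CPM in LEPR+ and 390 to 1250 in LEPR- libraries of young mice, and at 137 to 457 and 185 to 687 in those of middle-aged mice. Pf4, a platelet chemokine, had means of 194 (LEPR+) and 487 CPM (LEPR-) in young and 77.5 and 230 in middle-aged mice and was not called by edgeR (LEPR+ against LEPR-: log2 difference -1.33 in young mice with adjusted p = 0.176, -1.57 in middle-aged mice with adjusted p = 1), while DESeq2 called it lower and Gp1ba higher with age in LEPR+ cells. Of 5 tested genes, edgeR called Gp1ba with age in LEPR- cells, with 1 count over the young LEPR- libraries and 18.2 ± 10.9 CPM (SD, n = 7) in middle-aged LEPR- libraries (adjusted p = 0.0162). The endothelial list was at 29.9 to 226 CPM in young LEPR+ and 0 to 34.6 in young LEPR- libraries. Middle-aged libraries had 33 to 160 CPM in LEPR+ and 40.6 to 212 in LEPR- cells. Of the 5 endothelial genes, edgeR called Kdr between the young fractions (adjusted p = 0.0258) and with age in LEPR- cells (adjusted p = 0.0079). Over all tested genes edgeR called 0.599% in the former and 3.84% in the latter comparison. Between the young fractions all 5 estimates were above 0 and 4 had an unadjusted p under 0.05, compared with 16.1% of tested genes. DESeq2 called Kdr, Stab2 and Flt4 higher in young LEPR+ cells. With age it called Kdr and Flt4 higher in LEPR- and Plvap lower in LEPR+ cells, and for the difference of the LEPR effects Kdr below 0. Kdr had no count in any young LEPR- library. The highest sum of the B cell list was 167 CPM in LEPR+ and 224 in LEPR- libraries of young mice, and 115 and 126 in middle-aged mice. In the same order it was 130, 272, 144 and 266 CPM for NK cells, 72.9, 136, 24.3 and 16.8 for macrophages, 1920, 1790, 1420 and 876 for erythroid cells and 291, 17.2, 69.2 and 24.4 for stroma. No gene of these 5 lists was called by edgeR, whereas DESeq2 called Nkg7 and Cd79a lower and the stromal genes Kitl, Col1a2 and Pdgfrb higher in LEPR+ than LEPR- cells of young mice. With age in LEPR- cells DESeq2 called Klrb1c and these 3 stromal genes higher and Nkg7 lower. In LEPR+ cells it called Cd79a higher. For the difference of the LEPR effects it called Cd79a above 0 and the 3 stromal genes below 0. Over all tested genes DESeq2 called 11.4% between the young fractions, 11.4% with age in LEPR+ and 20.8% in LEPR- cells, and 7.69% for that difference. The stromal sum of 291 CPM was that of the young LEPR+ library of mouse 4, and the other 3 young LEPR+ libraries had 0.0864 to 10.7 CPM. The same library had the endothelial sum of 226 CPM. The highest erythroid sums of each age were both libraries of mouse 2 and both of mouse 6. The part of these libraries in the calls was not tested. Most of the B cell sum was Cd79b, at 87 to 119 CPM in the group means, while Ms4a1 was at 0 in all young libraries.

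**Figure D5:**
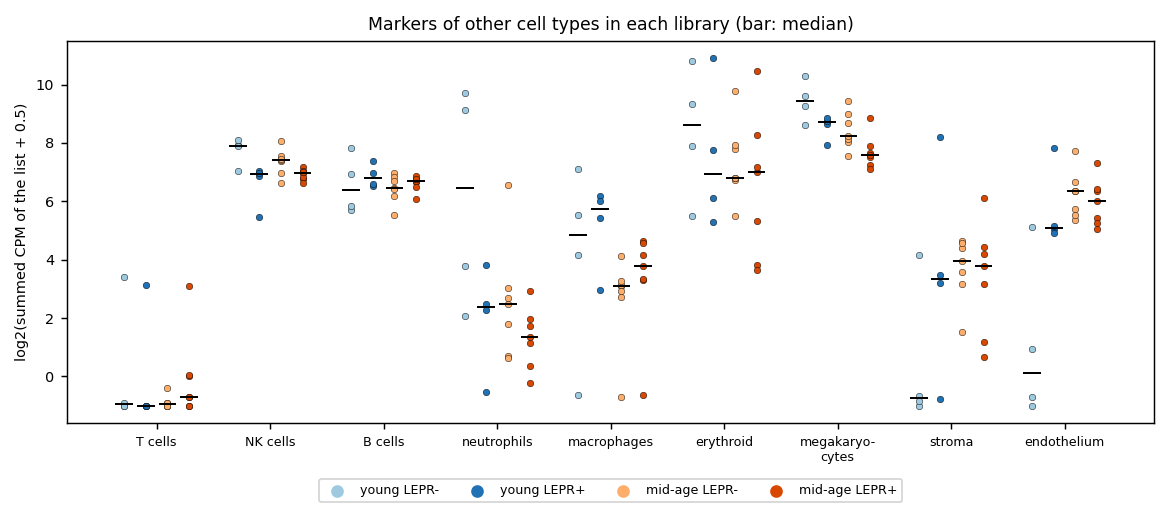
Summed level of marker lists of other cell types in each library, as log2(CPM + 0.5), with a bar at the group median. Neutrophil sums of 556 and 835 CPM in 2 young LEPR- libraries stand above the other libraries, and T cell sums are at or below 10.1 CPM.

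The markers did not vary as a unit over the 22 libraries. On the scale of log2(CPM + 0.5), Pearson's r was 0.75 for Slamf1 and Ctnnal1, 0.63 for Ly6a and Procr, 0.61 for Kit and Ctnnal1 and -0.55 for Kit and Cd48. These are descriptions over libraries that share mice, groups and unequal gene detection. Among 9027 other genes whose mean level reached 10 CPM, the 2 whose levels followed each marker most closely (1 is given for Cd34) were Parp14 (r 0.876) and Golga2 (0.873) for Kit, and Pcif1 (0.883) and Dkkl1 (0.802) for Ly6a. They were C1rl (0.921) and Cep97 (0.914) for Slamf1, Idi1 (0.854) for Cd34, and Usp42 (0.798) and Apbb2 (0.742) for Flt3. For Procr they were Dkkl1 (0.747) and Srebf2 (0.743), for Fgd5 Rpap1 (0.891) and Ercc4 (0.866), for Ctnnal1 Sdha (0.922) and Bzw2 (0.89), and for Hoxb5 Cby1 (0.872) and Taok2 (0.868). Dkkl1 was thus on the list of both Ly6a and Procr, and Cd48, with a mean under 10 CPM, was not compared.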

How the data were processed

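Messenger RNA of sorted HSCs was measured in 22 libraries of 11 mice. The deposited values are raw read counts per gene, 1 file per library. Per the submitters' processing notes the authors used FastQC, cutadapt, STAR, HTSeq and DESeq2 with GRCm39 (mm39). Versions, annotation release and strand setting are not given in the sources used here. The library kit is an amplifying kit for very low input, per the labels' protocols, with no molecular identifiers stated, so floors cover counting error only. The HTSeq summary lines (29.1% to 40.3% of records, which hold reads placed more than once) were left out. Of 55416 identifiers 54749 matched GENCODE vM39, and the others held 0.0454% of counts.

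The main test was edgeR's quasi-likelihood F test (edgeR 4.0.16, R 4.3.3), fitted once to the 22 libraries after TMM scaling, filterByExpr (minimum count 10, minimum total 15), 17366 genes and 5 contrasts, with Benjamini-Hochberg adjustment over all tested genes and calls at an adjusted p under 0.05. SE is the log2 fold change divided by the square root of F. Differences are log2 fold changes and CPM are TMM-scaled.

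All 10 markers are named in each comparison. From each list at most 3 called genes, or else the gene with the smallest p, were named, and the 2 genes most like each marker by Pearson correlation. Some genes that this rule selects are not reported here. Names outside this rule (lists' most abundant genes and genes at 0) were chosen after their values were seen. Markers and lists were chosen with earlier results of these data known.

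Same-numbered LEPR+ and LEPR- libraries came from the same mouse. Their deviations from the group means had r from 0.04 to 0.656, and 10 of 11 correlated best with their own mouse. The alternatives were RLE and upperquartile scaling, DESeq2 1.42.0, no filter, only the groups compared, covariates (sex, genes detected), the mouse as a fixed block or as a random block in limma's voom (version 3.58.1, correlation 0.263), and libraries or mice left out. The fits without mice 10 and 11 and the settings of the count of markers higher in every young mouse were added after seeing the data. Within a group each library came from another animal, so the spread there is that between mice. The main test has no term for the mouse. It counts both fractions of a mouse as independent, and its comparisons of LEPR+ with LEPR- cells do not use the pairing.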

Additional observations from a re-analysis of the deposited data

Results flagged for a closer look

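Of 40 groups of marker values checked, 3 held a library whose gap to the nearest other library, as a share of the group's range, was above Dixon's 95% critical value. Chance flags about 1 in 20 groups only where values are normally distributed. CPM with many zeros, such as those of Cd48, are not, so the number of flags cannot be judged against that rate. Cd48 in middle-aged LEPR+ libraries was 2.8 CPM in mouse 10, where the next highest was 0.494 CPM. Cd48 in middle-aged LEPR- libraries was 4.16 CPM in the same mouse, where the next highest was 0.568 CPM. Fgd5 in young LEPR- libraries was 36.1 CPM in mouse 3, where the next highest was 1.18 CPM.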

How the results depend on the processing

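Of 499 log2 differences recomputed under other settings, 463 kept their direction and side of the threshold, 27 turned sign, 3 lost and 6 gained the call, and with 1 library left out 600 of 660 were kept, 55 turned sign and 5 lost the call. The cause was not tested. Levels under the 3 counts that a count of 0 allows, up to 0.279 CPM in the shallowest library, could not be seen, and the 4 young mice limit every comparison with them.

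With age in LEPR+ cells the number of markers called was 1 without mouse 6 (Kit), 2 with DESeq2 and 1 with voom and its random replicate block (Cd34), in place of 0. In LEPR- cells it was 0 without mice 10 and 11 and 0 to 1 with 1 library left out, and the 1 marker called was Cd48 with genes detected as covariate and Ctnnal1 with voom. The mouse as a fixed replicate block changed no call of a marker in the LEPR comparisons and their difference, where it could be fitted.

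These differences turned sign. With the fixed replicate block they were Slamf1 (LEPR in young 0.30, difference of LEPR effects -0.22), Fgd5 (LEPR in middle-aged 0.20) and Flt3 (difference -0.65). With voom and the random replicate block they were Slamf1 (LEPR in young 0.73 and middle-aged -0.01, difference -0.74), Hoxb5 (LEPR in young 0.91, age in LEPR+ 0.50 and LEPR- 1.94), Fgd5 (LEPR in middle-aged 0.65), Ly6a (age in LEPR- 0.19), Kit (difference 0.17) and Flt3 (difference -0.27). Ly6a turned in LEPR- cells with age under RLE (0.07), no filter (0.03), sex (0.16), genes detected (0.52), DESeq2 (0.08) and without mice 10 and 11 (0.24), and in LEPR+ cells with genes detected (0.13). Procr with age in LEPR+ cells was -0.05 under upperquartile scaling. Hoxb5 with age was 0.06 in LEPR+ and 0.07 in LEPR- cells with sex as covariate, and its difference of effects 0.04 with genes detected. The difference of effects of Cd48 was -1.12 with genes detected and -0.78 without mice 10 and 11.

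With 1 library left out, the LEPR effect in young mice ranged from -1.18 to 0.37 for Slamf1, -0.37 to 4.88 for Fgd5 and -0.34 to 2.60 for Ctnnal1. In middle-aged mice it ranged from -0.02 to 0.21 for Slamf1, -2.99 to 2.14 for Cd48, -0.42 to 0.29 for Flt3, -0.29 to 0.08 for Fgd5 and -0.02 to 0.30 for Ctnnal1. The age difference in LEPR+ cells ranged from -0.66 to 0.84 for Flt3, -0.06 to 0.32 for Procr and -0.66 to 0.27 for Hoxb5, and in LEPR- cells from -0.38 to 0.24 for Ly6a and -0.65 to 0.14 for Hoxb5. The difference of effects ranged from -0.63 to 0.01 for Ly6a, -0.25 to 1.3 for Slamf1, -2.27 to 2.87 for Cd48, -0.40 to 0.13 for Procr, -4.94 to 0.31 for Fgd5, -2.45 to 0.49 for Ctnnal1 and -0.43 to 0.49 for Hoxb5.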
